A study of Mus musculus with 11 samples.

Results

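Pdpn, the gene of the membrane glycoprotein podoplanin, was followed through RNA sequencing of primary lung fibroblasts from newborn mice that lacked peptidylarginine deiminase 2 (PAD2KO) or were wild type (WT). It is 1 of 32868 named genes in the table, where it has a single entry, and it was picked by name after earlier results of these libraries had shown it among the genes that differ most between the genotypes. Its own levels, fold changes and standard errors are therefore given as a description, with no test. The other genes named were tested across the whole table.

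Podoplanin is a small mucin-type protein with an outer domain rich in O-linked sugars, a single membrane span and a short tail inside the cell. The outer domain binds the platelet receptor CLEC-2, encoded by Clec1b, and the tail binds ezrin and moesin, which tie it to the actin skeleton. In lung it is best known as a surface marker of alveolar type 1 cells and of lymphatic endothelium. Fibroblasts carry it too, and in the reticular fibroblasts of mouse lymph nodes it keeps the cells contractile until CLEC-2 engages it.

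The study sorted the fibroblasts by flow cytometry and sequenced bulk RNA, with both genotypes in each of 2 batches that the labels name. Batch 2 held PAD2KO 6 and PAD2KO 7 with WT 5, WT 6 and WT 7, and batch 1 held PAD2KO 1, PAD2KO 2 and PAD2KO 3 with WT 1, WT 3 and WT 4. The enzyme that PAD2KO cells lack, encoded by Padi2, turns arginine in proteins into citrulline. How Padi2 was disrupted, the strain, the exact age, the sorting gate, whether podoplanin staining was part of it, and what a batch stands for are not given in the sources at hand. The series title mentions TNF, but no label gives a treatment for any of the 11 libraries. Nor do they say if the libraries of a group come from different mice or cultures, so each p-value reflects the scatter among the libraries at hand, and that scatter may be technical.

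Totals ran from 962633 to 1421243 counts on named genes. CPM is a gene's count scaled to an equal total of named genes in each library, and TPM is the deposited abundance, which also allows for transcript length. A count of 0 allows up to 2.11 to 3.12 CPM, and these limits and all intervals cover counting error only. Padi2 itself had 0 to 4 counts in the 5 PAD2KO libraries and 0 to 2 in the 6 WT libraries, too few to check the genotype labels. Of 10 listed fibroblast markers, collagen genes among them, 9 passed the filter on low counts, so the markers of the labelled cell type were present.

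In the GRCm38 assembly Pdpn spans chr4:143267431-143299564 on the minus strand, 32134 bases. The GENCODE M21 annotation of that assembly lists a transcript Pdpn-201 of 6 exons and 1817 bases, and a transcript Pdpn-202 of 5 exons and 762 bases. The submitters' notes name the later assembly GRCm39, so these positions locate the gene but were not used to count reads. The pair of transcripts differ in the coding part by exon 4, at chr4:143270523-143270561, whose 39 bases bring the coding length to 516 bases in Pdpn-201 against 477 bases in Pdpn-202. This stretch is shown because the short form, whose level is given further on, joins exon 3 straight to the next exon, and capitals mark exon 4:
Pdpn-201 across exon 4: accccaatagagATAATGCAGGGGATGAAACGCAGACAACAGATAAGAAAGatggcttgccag
Pdpn-202 at the same place: accccaatagagatggcttgccag

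The 250 bases before the gene's start, chr4:143299565-143299814 on the minus strand in RefSeq's promoter table for GRCm38.p6, are shown because the level of the transcript is what differed between the libraries:
Pdpn upstream window: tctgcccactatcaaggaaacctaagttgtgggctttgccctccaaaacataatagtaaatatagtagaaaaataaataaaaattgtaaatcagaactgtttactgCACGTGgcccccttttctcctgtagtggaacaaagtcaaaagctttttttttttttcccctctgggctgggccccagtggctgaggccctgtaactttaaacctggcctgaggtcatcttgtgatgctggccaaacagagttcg
The capitals mark an E-box, CACGTG, the only match among 6 motifs searched on both strands, none of which overlap each other here. It lies 144 to 139 bases before the start, and 6.02% of 32851 such windows hold it. The window has no match to AP-1 (TGANTCA, in 6.75% of windows), to a STAT site (TTCNNNGAA, 7.02%), to a GC box (GGGCGG, 32.7%), to the core of a cyclic AMP response element (TGACG, 17.8%) or to TATAAA (12.4%). Its GC content was 43.2%, where the median window had 52.4%. These are matches of letters, and no binding was measured.

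Pdpn was low in every PAD2KO library and high in every WT library. In batch 2, PAD2KO 6 had 135 counts, or 109 CPM (95% exact Poisson interval 91.4 to 129), and PAD2KO 7 had 143 counts, or 111 CPM (93.2 to 130.2). Against these, WT 5 had 1574 counts, or 1142 CPM (1086 to 1199), WT 6 had 1728 counts, or 1332 CPM (1270.1 to 1396), and WT 7 had 1003 counts, or 1042 CPM (978 to 1108). The lowest WT library of batch 2 thus lay far above the highest PAD2KO library, and the ranges did not overlap. In batch 1, PAD2KO 1 had 129 counts, or 102 CPM (85.3 to 121), PAD2KO 2 had 113 counts, or 79.5 CPM (65.5 to 95.6), and PAD2KO 3 had 122 counts, or 92.5 CPM (76.8 to 110.4). Their WT counterparts were WT 1 with 458 counts, or 356 CPM (324 to 390.4), WT 3 with 554 counts, or 392 CPM (359.7 to 426), and WT 4 with 457 counts, or 368 CPM (335 to 403). These groups did not overlap either.

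**Figure D1:**
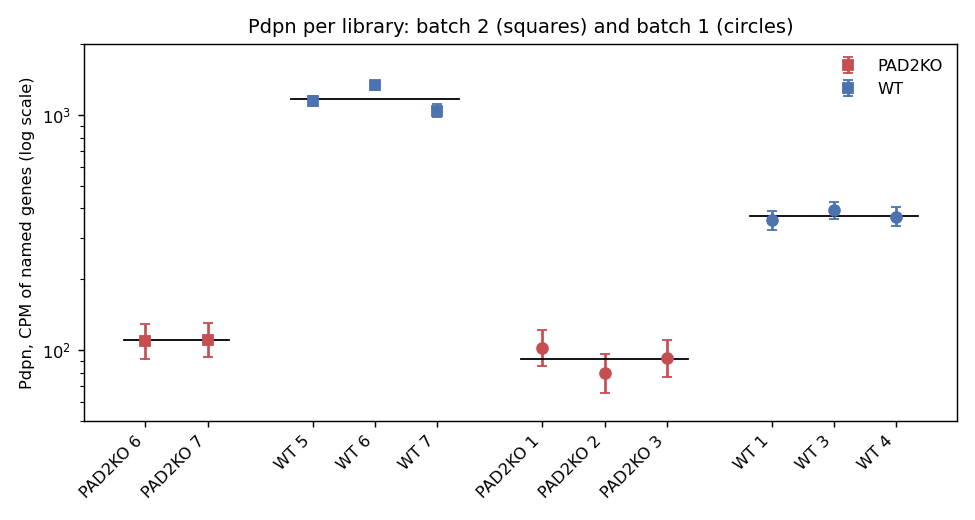
Level of Pdpn in each of the 11 libraries, as CPM of named genes on a log axis, with PAD2KO in red and WT in blue, squares for batch 2 and circles for batch 1. Bars are 95% exact Poisson intervals of the count and horizontal lines are group means. The 5 PAD2KO libraries sit between 79.5 and 111 CPM, the 3 WT libraries of batch 1 between 356 and 392 CPM, and the 3 WT libraries of batch 2 between 1042 and 1332 CPM.

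On the deposited TPM scale the same order held. The PAD2KO libraries of batch 2 had 81.0 and 82.7 TPM, against 839, 985 and 781 TPM in WT 5, WT 6 and WT 7. PAD2KO 1, PAD2KO 2 and PAD2KO 3 had 76.8, 62.6 and 71.3 TPM, against 276, 309.5 and 294 TPM in WT 1, WT 3 and WT 4. Among all named genes sorted by TPM, Pdpn held places 1632 to 2243 in the PAD2KO libraries, 136 to 170 in the WT libraries of batch 2 and 419 to 475 in those of batch 1. It was thus one of the most abundant transcripts of WT cells in batch 2, while in PAD2KO cells of both batches it was still well above the limit of detection.

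Within batch 2 the mean was 109.8 ± 1.12 CPM in PAD2KO (SD, n = 2) and 1172 ± 147 CPM in WT (SD, n = 3), so PAD2KO cells held 9.37% of the WT level, 10.7-fold less. Within batch 1 it was 91.4 ± 11.4 CPM in PAD2KO and 372 ± 18.0 CPM in WT (SD, n = 3 each), 24.6% of the WT level or 4.07-fold less. Fitted on all genes with edgeR, the log2 difference of PAD2KO from WT was -3.42 (SE 0.145) in batch 2 and -2.05 (SE 0.123) in batch 1, and -2.66 (SE 0.259) over both batches with a term for batch. Sorted from the most negative difference among 9932 genes that passed the filter on low counts, Pdpn stood at place 7 in batch 2, place 5 in batch 1 and place 3 over both. For scale, 309 genes (3.11%) passed an adjusted p of 0.05 in batch 2, 13 (0.131%) in batch 1 and 19 (0.191%) over both batches, and nothing is read from Pdpn's place among them because it was chosen on these contrasts. Under the alternative settings and with each library left out in turn, the log2 difference stayed within -3.50 to -3.32 in batch 2, -2.14 to -1.95 in batch 1 and -2.99 to -2.47 over both. In bulk RNA, fewer podoplanin-bearing cells and less Pdpn RNA per cell cannot be told apart.

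The batches differed for Pdpn mainly in WT cells. PAD2KO libraries of batch 2 averaged 1.20 times those of batch 1, with 109.8 ± 1.12 CPM (SD, n = 2) against 91.4 ± 11.4 CPM (SD, n = 3). The 2 PAD2KO groups did not overlap, with 109 to 111 CPM for batch 2 and 79.5 to 102 CPM for batch 1. The counting intervals of PAD2KO 6 and PAD2KO 7 each overlapped those of all 3 PAD2KO libraries of batch 1. Such overlap between single libraries does not settle the order of the group means, which was not tested. WT libraries of batch 2 averaged 3.15 times the level of WT libraries of batch 1, with 1172 ± 147 CPM against 372 ± 18.0 CPM (SD, n = 3 each), and no library of one batch fell in the range of the other. From highest to lowest the 4 groups thus ran WT batch 2, WT batch 1, and then PAD2KO of batch 2 and of batch 1 close together.

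As log2 differences, batch 2 stood at 0.30 (SE 0.146) relative to batch 1 in PAD2KO cells and at 1.68 (SE 0.111) in WT cells. The genotype difference in batch 2 minus that in batch 1 was -1.38 on the log2 scale (SE 0.183), that is, a gap 2.60 times wider in batch 2. Across alternatives these values ran from 0.21 to 0.41, from 1.58 to 1.75 and from -1.47 to -1.27. Much of the transcriptome moved with batch: 1853 genes (18.7%) passed the threshold between batches in PAD2KO cells and 2212 (22.3%) in WT cells. In PAD2KO cells Pdpn stood at place 2363 from the most positive batch difference, and in WT cells at place 178. The batch and genotype comparisons share libraries, so their values stand side by side and do not support each other.

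Relative to its mean, the scatter of Pdpn was a coefficient of variation of 1.02% in PAD2KO and 12.6% in WT of batch 2, and of 12.4% in PAD2KO and 4.85% in WT of batch 1. In WT cells of batch 2 the SD of 147 CPM was several times the 31.3 CPM that counting alone would give, and it came from WT 6 above and WT 7 below WT 5. In WT cells of batch 1 the SD of 18.0 CPM was close to the 16.8 CPM of counting error. In PAD2KO cells the SD was 1.12 CPM in batch 2, where counting error was 9.31 CPM, and 11.4 CPM in batch 1, where it was 8.31 CPM.

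Nearly all Pdpn counts were assigned to the long transcript with exon 4. The authors' effective length of a gene is an average over its transcripts, so it shortens as the 762-base form gains weight, and its value was compared with the length expected from the 1817-base form alone. All 5 PAD2KO libraries and WT 1 had exactly the long-form length, which puts the short form at 0 counts. The implied counts of the short form were 2.32 in WT 5, 3.24 in WT 6, 7.44 in WT 7, 2.02 in WT 3 and 1.88 in WT 4. WT 7 had the largest share, 0.742% of its Pdpn counts. Summed over libraries the short form took 0 of 642 counts in PAD2KO and 16.9 of 5774 counts (0.293%) in WT. The 0 would allow a share of up to 0.467% if every fragment could tell the forms apart. The exons of the short form lie within those of the long form, so few fragments can, and the true limit is wider. A difference in isoform use between the genotypes was thus not detectable at this depth. The calculation takes the authors' annotation to hold the same pair of transcripts as GENCODE M21, which no source used here states.

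To place Pdpn in its pathway, 8 lists holding 176 genes were followed through the same fits, and 146 of these genes passed the filter on low counts. The lists were chosen with earlier results of these libraries known, so their shares are not read against those of all genes. In batch 2, 14 were higher and 7 lower in PAD2KO (14.4% of those tested, where 3.11% of all genes passed, 1.4% higher and 1.71% lower). In batch 1, 1 was lower and 0 were higher (0.685%, where 0.131% of all genes passed, 0.0201% higher and 0.111% lower), and over both batches 2 were lower and 0 higher (1.37%, where 0.191% passed, 0.0201% higher and 0.171% lower). None of the 8 list medians in PAD2KO against WT lay beyond -0.14 to 0.24 on the log2 scale in either batch, while the median of all genes was -0.0068 in batch 2 and -0.0011 in batch 1. Of the 21 genes, 7 still passed without PAD2KO 7, where the count over all genes was 65 in place of 309, and 13 without WT 7, 14 without WT 5 or without WT 6, and 17 without PAD2KO 6. Leaving out PAD2KO 6 or PAD2KO 7 leaves a single PAD2KO library in batch 2, which is then assumed to vary like the other groups, so a call lost there does not by itself tie the difference to the library left out. Without WT 5, WT 6 or WT 7, Il6 was no longer tested because it fell under the filter. With offsets for transcript length 9 of the 21 still passed. Myl9, Galnt18, Il6, Tnfrsf1b, Jak2 and Itgb1 passed in batch 2 under every setting in which they were tested.

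Of the ligands and membrane partners of podoplanin, 8 of 13 could be tested, and 1 was lower in PAD2KO of batch 2. It was Cd9, the gene of a tetraspanin that binds podoplanin in human cells. It had 132 and 102 CPM in PAD2KO 6 and PAD2KO 7, against 178, 150 and 195 CPM in WT 5, WT 6 and WT 7, with no overlap. The log2 difference was -0.58 (SE 0.15, edgeR adjusted p = 0.0227) and lost the call without PAD2KO 7 (-0.41), WT 5 (-0.56) or WT 7 (-0.49), and with length offsets, batch 2 fitted alone, the replicate block or DESeq2. Clec1b, the gene of CLEC-2, had 0 to 1.45 CPM in every library, at or under the limit of detection, and the chemokine genes Ccl21a and Ccl21b had 0 counts throughout. The hyaluronan receptor gene Cd44, whose protein binds podoplanin in human cells, averaged 458 CPM in PAD2KO and 373 CPM in WT of batch 2, and 140.4 CPM in PAD2KO and 181 CPM in WT of batch 1. Neither genotype difference of Cd44 passed the test, at log2 0.29 in batch 2 (adjusted p = 0.245) and -0.39 in batch 1 (adjusted p = 0.367). Cd44 did move with batch in both genotypes, by log2 1.74 in PAD2KO (adjusted p = 4.3e-11) and 1.07 in WT (adjusted p = 3.56e-08). Other partners did not pass between genotypes, among them Bsg, the gene of basigin, with a log2 difference of -0.13 in batch 2 and 0.18 in batch 1.

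The tail's own partners, ezrin and moesin, showed no difference that passed, and nor did Rhoa. Ezr (ezrin) had a log2 difference of 0.01 in batch 2 and -0.18 in batch 1, Msn (moesin) of 0.16 and 0.01 in the same order, and Rhoa of 0.19 and 0.02. Of 27 tested genes of the ERM and actomyosin list, 3 were higher in PAD2KO of batch 2 and none in batch 1 at the same threshold. They were Myl9, the regulatory light chain of myosin, Mylk, the kinase that phosphorylates it, and the small GTPase Rac1. Myl9 had 601 and 709 CPM in PAD2KO 6 and PAD2KO 7, against 400.2, 331 and 319 CPM in WT 5, WT 6 and WT 7. The log2 differences were 0.90 for Myl9 (adjusted p = 6.47e-05), 1.00 for Mylk (adjusted p = 0.00214) and 0.53 for Rac1 (adjusted p = 0.0397). Myl9 kept its call under every setting run. Mylk lost its call without PAD2KO 7 (0.83) and with the replicate block. Rac1 lost its call without PAD2KO 7 (0.32), WT 5, WT 6, PAD2KO 3 or WT 3. It also lost it with length offsets, batch 2 fitted alone, the replicate block or DESeq2. Summed smooth muscle and pericyte markers were also higher in PAD2KO of batch 2, at 4410 to 5606 CPM against 1597 to 2084 CPM in WT. In batch 1 they were at 5412 to 8559 CPM in PAD2KO and 7298 to 7851 CPM in WT. Their part in the Myl9, Mylk and Rac1 differences was not tested.

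Among enzymes that build mucin-type O-linked sugars, of which podoplanin's outer domain carries many, 1 of 21 tested was higher in PAD2KO of batch 2. Galnt18, a member of the family that starts such chains, had 137 and 195 CPM in PAD2KO 6 and PAD2KO 7, against 49.3, 63.2 and 60.3 CPM in WT 5, WT 6 and WT 7. Its log2 difference was 1.53 (SE 0.17, adjusted p = 1.63e-06) in batch 2 and -0.09 in batch 1. C1galt1, which adds the core galactose that CLEC-2 binding needs, had a log2 difference of 1.24 in batch 2 that did not pass (adjusted p = 0.127). All 13 proteases and partners on the list were tested. Capn2, the large subunit of calpain 2, was higher in PAD2KO of batch 2 at log2 0.46 (adjusted p = 0.0246). Its call was lost without PAD2KO 7 (0.32), WT 6 (0.45) or WT 7 (0.43), and with length offsets, batch 2 fitted alone or the replicate block.

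Of 25 tested cytokine receptor and STAT genes, 4 were lower and 2 higher in PAD2KO of batch 2. Tnfrsf1b, the gene of TNF receptor 2, had 25.02 and 21.6 CPM in PAD2KO 6 and PAD2KO 7, against 84.1, 82.5 and 118 CPM in WT 5, WT 6 and WT 7. In batch 1 it had 26.9, 26.0 and 37.9 CPM in PAD2KO 1, PAD2KO 2 and PAD2KO 3, against 63.8, 60.1 and 68.4 CPM in WT 1, WT 3 and WT 4. All 5 PAD2KO libraries lay below all 6 WT libraries, as they did for Pdpn. Its log2 difference was -2.01 in batch 2 (adjusted p = 1.63e-06), -1.10 in batch 1 (adjusted p = 0.00584) and -1.48 over both (adjusted p = 8.58e-05). The batch 1 call was lost without PAD2KO 2 (-0.99), and the calls in batch 1 and over both were lost with length offsets and with the replicate block.

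Il6, a cytokine gene, had 18.6 and 10.8 CPM in PAD2KO 6 and PAD2KO 7, against 57.3, 74.0 and 61.3 CPM in WT 5, WT 6 and WT 7, a log2 difference of -2.13 (adjusted p = 2.67e-05). In batch 1 it was at 1.58 to 4.93 CPM in PAD2KO and 2.42 to 3.89 CPM in WT, near the limit of detection. Over both batches it stood at log2 -1.61 (adjusted p = 0.0394) and lost the call without PAD2KO 1, WT 3, PAD2KO 6 or PAD2KO 7, and in 5 of 7 other settings (length offsets, entries without symbol kept, no batch term, the replicate block and DESeq2). The interferon receptor gene Ifnar2 was lower by log2 -0.84 (adjusted p = 0.0045), with PAD2KO 7 at 92.8 CPM and PAD2KO 6 at 173 CPM. Its call ended without PAD2KO 7 (-0.46) and with batch 2 fitted alone. Jak2, a kinase of these receptors, was higher by 1.45 (adjusted p = 5.54e-05), and so was the leukaemia inhibitory factor receptor gene Lifr, by 0.71 (adjusted p = 0.0117). Lifr no longer passed without PAD2KO 7 (0.66) or WT 7 (0.57), or with length offsets. Stat3 did not pass, at log2 -0.17 in batch 2 and -0.04 in batch 1, nor did the TNF receptor 1 gene Tnfrsf1a, at -0.15 and -0.07 in the same order.

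Of 13 tested genes of TGF-beta signalling, which raises podoplanin in human cancer cells, Tgfbr3, a co-receptor, was lower in PAD2KO of batch 2 (log2 -0.85, adjusted p = 0.0148). Of 21 tested transcription factors, Fos, an AP-1 subunit that induces Pdpn in mouse skin, was higher in PAD2KO of batch 2 (0.44, adjusted p = 0.0376), as was Snai2 (0.82, adjusted p = 0.0442). Without PAD2KO 7 their calls were lost, at -0.62 for Tgfbr3, 0.38 for Fos and 0.68 for Snai2. Each call was also lost without WT 7 and with length offsets. Fos lost it too without WT 3, WT 5 or WT 6, and with batch 2 fitted alone. Snai2 lost it too without WT 5, WT 6 or PAD2KO 3, and with entries without symbol kept, the replicate block or DESeq2. Without PAD2KO 6 Fos stood at 0.50 and Snai2 at 0.94. Prox1, the lymphatic regulator of Pdpn, stayed at 0 to 3.11 CPM in all libraries.

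Other surface genes of stromal and reticular fibroblasts went both ways. In batch 2, 4 of 19 tested were higher in PAD2KO and 1 was lower, and in batch 1 none passed. Itgb1, the integrin beta 1 chain, had 764 and 900.0 CPM in PAD2KO 6 and PAD2KO 7, against 505, 516 and 435 CPM in WT 5, WT 6 and WT 7 (log2 0.77, adjusted p = 0.000171). The others that rose were Thy1, a fibroblast surface glycoprotein gene (0.85, adjusted p = 0.00662), the integrin gene Itga5 (0.51, adjusted p = 0.0426) and Tnfrsf11b, the gene of osteoprotegerin (1.65, adjusted p = 0.00393). Vcam1, a cell adhesion molecule gene, fell (-0.75, adjusted p = 0.00739). Of these 5, Itgb1 kept its call under every setting run. The others lost theirs without PAD2KO 7, at 0.92 for Thy1, 0.49 for Itga5, 1.47 for Tnfrsf11b and -0.41 for Vcam1, and with length offsets. Vcam1 lost it too with batch 2 fitted alone. Itga5 lost it too without WT 3, WT 5 or WT 6, and with entries without symbol kept, the replicate block or DESeq2. Without PAD2KO 6 Thy1 stood at 0.77 and Itga5 at 0.52. Pdgfra, a fibroblast receptor gene, had a log2 difference of -0.16 in batch 2 and 0.00 in batch 1.

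**Figure D2:**
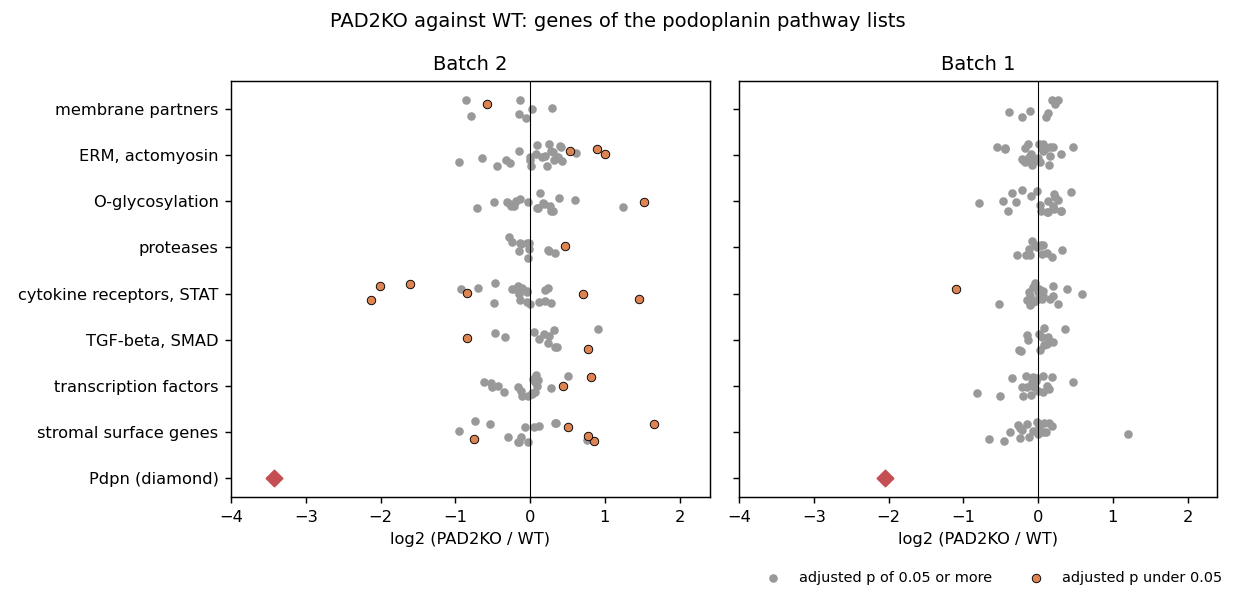
Log2 difference of PAD2KO from WT for each tested gene of the 8 pathway lists, batch 2 on the left and batch 1 on the right, with genes past an edgeR adjusted p of 0.05 in orange and Pdpn, untested, as a red diamond. In batch 2 the diamond lies at -3.42, beyond Il6 at -2.13 and Tnfrsf1b at -2.01. In batch 1 it lies at -2.05, and Tnfrsf1b at -1.10 is the 1 orange point.

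Between the batches, 37 pathway genes were higher and 20 lower in batch 2 in PAD2KO cells, and 30 were higher and 27 lower in WT cells (39.0% of those tested in each). Of all genes, 9.52% were higher and 9.13% lower in PAD2KO cells, and 11.7% were higher and 10.6% lower in WT cells. Il6st, the signalling chain shared by several of these cytokine receptors, was lower in batch 2 in PAD2KO cells (log2 -1.73, adjusted p = 9.96e-12), where Pdpn stood at 0.30, and in WT cells (-2.04, adjusted p = 8.5e-15), where Pdpn stood at 1.68. For the genotype difference itself, 10 pathway genes were more positive and 3 more negative in batch 2 than in batch 1 (8.9% of those tested, where 1.62% of all genes passed, 0.665% more positive and 0.957% more negative). Among the negative ones, the direction Pdpn took, were Vcam1 (-0.82, adjusted p = 0.0447) and Cd9 (-0.80, adjusted p = 0.0351). Because the lists were chosen with earlier results known, these shares too are not read against those of all genes.

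Across the 11 libraries, a few genes followed Pdpn closely. Likeness was measured as Pearson's r of log2 CPM with Pdpn. The points share genotype, batch and depth, so r is a description. Of 9931 genes compared, 53 had r above 0.8 and 34 below -0.8, and the median was 0.004. The most alike was Tnfrsf1b (0.94), followed by Parp10 (0.93), Ogfr (0.90), Phf11d (0.89), Slco2a1 (0.87), Mpp2 (0.87), Rtp4 (0.87) and Parp14 (0.87). Parp10 and Parp14 encode mono-ADP-ribosyltransferases, Ogfr a receptor of an opioid peptide, Slco2a1 a prostaglandin transporter and Rtp4 a chaperone of membrane receptors. The least alike were Mkln1 (-0.92), Zfp451 (-0.91), Tmem43 (-0.91) and Dusp22 (-0.89).

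The 4-group pattern carried this likeness. Tnfrsf1b averaged 23.3 CPM in PAD2KO and 95.01 CPM in WT of batch 2, and 30.3 CPM in PAD2KO and 64.1 CPM in WT of batch 1. Rtp4 averaged 9.13 CPM in PAD2KO and 74.4 CPM in WT of batch 2, and 4.98 CPM in PAD2KO and 8.72 CPM in WT of batch 1, so it was high in a single group. Parp14 averaged 8.29 CPM in PAD2KO and 35.5 CPM in WT of batch 2, and 12.95 CPM in PAD2KO and 16.4 CPM in WT of batch 1. Once each group's mean was taken off, r with Pdpn was -0.36 for Tnfrsf1b, 0.03 for Parp10, -0.34 for Parp14 and 0.46 for Mpp2, the highest of the 8. It was 0.29 for Slco2a1, 0.06 for Rtp4, -0.33 for Ogfr and -0.29 for Phf11d. Outside WT of batch 2 the scatter of Pdpn within a group was near or below counting error, and several of these genes had few counts. These values therefore cannot show whether Pdpn and these genes vary together within a group.

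**Figure D3:**
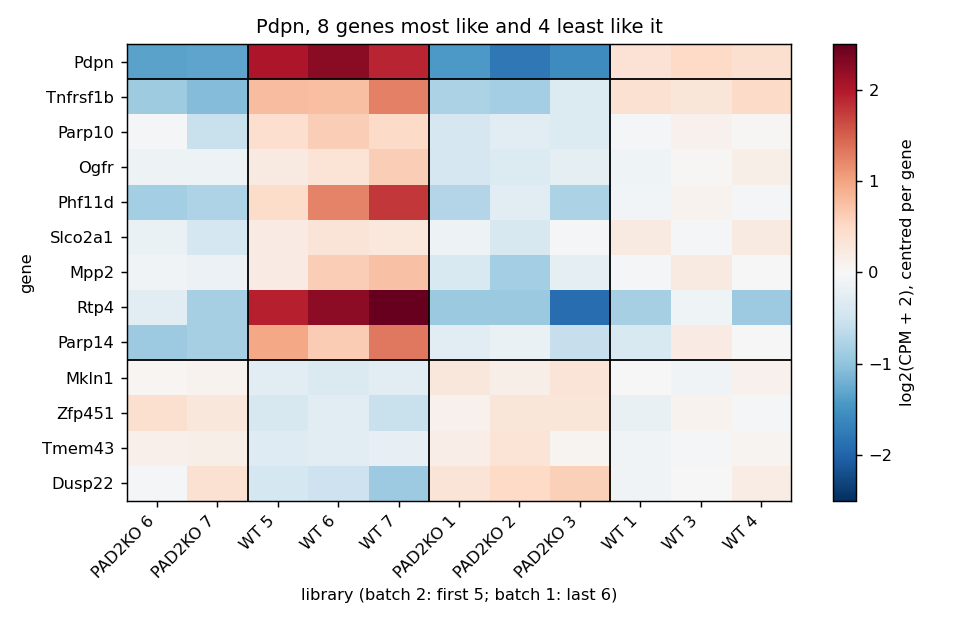
Log2(CPM + 2), centred on each gene's mean, of Pdpn, the 8 genes most like it and the 4 least like it, with libraries of batch 2 on the left and PAD2KO left of WT in each batch. Red is above and blue below a gene's mean. Pdpn is darkest red in WT 6 and darkest blue in PAD2KO 2, and Rtp4 is red in the 3 WT libraries of batch 2 alone.

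Pdpn lies 2.315 Mb from Padi2 on the same chromosome, with 17 tested genes between them. Of the 5 tested genes on each side of Pdpn, those towards Padi2 had log2 differences from -0.32 to 0.51 in batch 2 and from -0.35 to 0.03 in batch 1, and none passed. The rest of the 17 genes, nearer to Padi2, were not followed here. Prdm2, the next tested gene on that side, stood at 0.13 in batch 2 and -0.24 in batch 1. On the other side Dhrs3, a retinoid-metabolising enzyme gene, was lower in PAD2KO of batch 2 (-0.74, adjusted p = 0.00296) and at 0.15 in batch 1, and Vps13d stood at -0.24 and 0.19. The third gene on that side is Tnfrsf1b, the one most like Pdpn across libraries. Beyond it, Zfp984 had 0.807 and 0 CPM in PAD2KO 6 and PAD2KO 7, against 17.4, 9.25 and 9.35 CPM in WT 5, WT 6 and WT 7, and 0 to 2.27 CPM in PAD2KO against 11.7 to 19.3 CPM in WT of batch 1. Zfp984 passed the test in batch 2 (adjusted p = 0.00152), in batch 1 (adjusted p = 0.00315) and over both (adjusted p = 8.58e-05). Its neighbour Zfp991 did not, at log2 -1.10 in batch 2 and -2.03 in batch 1. On the deposited TPM scale Zfp991 went the other way. Its mean was 20.5 TPM in PAD2KO and 8.34 TPM in WT of batch 2, and 18.8 and 13.8 TPM in batch 1. Zfp984 and Zfp991 are related zinc finger genes, between which estimated counts may be split, so their values are uncertain.

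**Figure D4:**
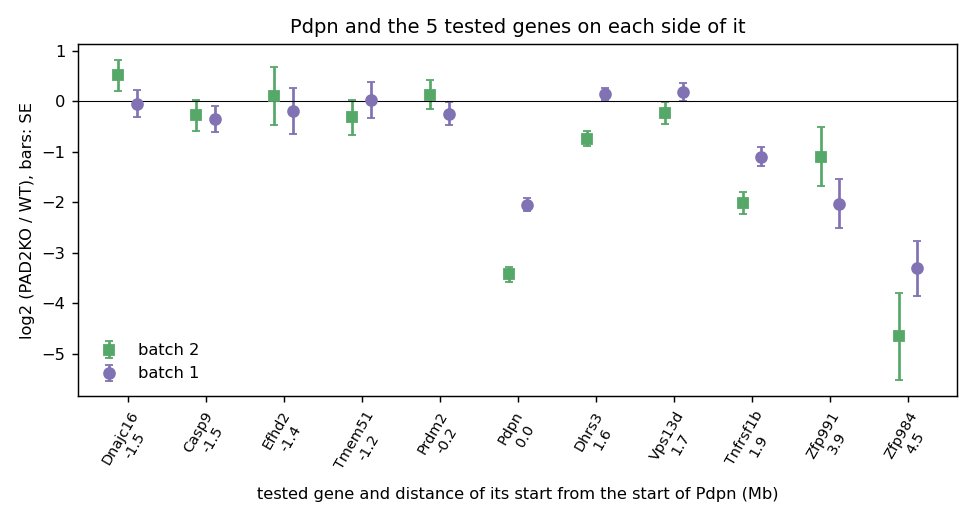
Log2 difference of PAD2KO from WT, with standard errors as bars, for Pdpn and the 5 tested genes on each side, in gene order, with batch 2 as squares and batch 1 as circles and the distance from Pdpn in Mb under each name. Pdpn, Tnfrsf1b, Zfp991 and Zfp984 lie below -1 in both batches, while the 5 genes on the left and Dhrs3 and Vps13d lie between -0.74 and 0.51. On the deposited TPM scale Zfp991 had the opposite direction in both batches.

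Epithelial, endothelial and mesothelial markers were followed because such cells can carry podoplanin. Of 10 markers of alveolar type 2 and other epithelium, 6 had 0 counts throughout and the sum reached at most 1.61 CPM in PAD2KO and 0 CPM in WT of batch 2, and 2.11 CPM in PAD2KO and 0.778 CPM in WT of batch 1. Alveolar type 1 markers summed to 267 to 297 CPM in PAD2KO and 204 to 224 CPM in WT of batch 2, and to 200.1 to 212 CPM in PAD2KO and 197 to 221 CPM in WT of batch 1. Of these 10 markers, 2 passed the filter on low counts and the others were too low to test. Lymphatic markers summed to 76.5 to 79.9 CPM in PAD2KO and 62.3 to 74.0 CPM in WT of batch 2, and to 73.2 to 131 CPM in PAD2KO and 124 to 145 CPM in WT of batch 1, with Ccl21a at 0 counts. On this list too, 2 of 10 passed the filter. Mesothelial markers summed to 116 to 182 CPM in PAD2KO and 93.5 to 191 CPM in WT of batch 2, and to 190.0 to 477 CPM in PAD2KO and 336 to 540.1 CPM in WT of batch 1. Blood endothelial markers summed to 9.28 to 12.9 CPM in PAD2KO and 13.1 to 21.8 CPM in WT of batch 2, and to 10.6 to 24.6 CPM in PAD2KO and 12.4 to 13.4 CPM in WT of batch 1, and none of the 10 passed the filter.

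Markers of macrophages and other leukocytes did move with Pdpn in batch 2. All 10 had a count in at least 1 library and 4 passed the filter, and their sum was 94.3 to 164 CPM in PAD2KO and 254 to 367 CPM in WT of batch 2, against 33.1 to 64.2 CPM in PAD2KO and 24.96 to 62.2 CPM in WT of batch 1. Most of it came from S100a8, at 46.0 and 20.1 CPM in PAD2KO 6 and PAD2KO 7 against 137, 130.2 and 64.4 CPM in WT 5, WT 6 and WT 7, from Cd14 and from Lyz2. The common leukocyte gene Ptprc had 0 to 3.03 CPM in every library. Summed fibroblast markers were 4747 to 4809 CPM in PAD2KO and 5262 to 5736 CPM in WT of batch 2, and 11010 to 13344 CPM in PAD2KO and 11737 to 15692 CPM in WT of batch 1. The part of these marker levels in the Pdpn result was not tested.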

How the data were processed

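RNA was taken up on silica columns and libraries were made with a SMARTer kit in a SmartSeq2 workflow, per the labels' protocols, so reads carry no molecular identifiers. The authors deposited 1 table with estimated counts, TPM and effective lengths per gene and library, per the file headers. The submitters' processing notes name GRCm39, fastp, DESeq2 1.46.0 and Salmon 1.3.2. Their roles, the annotation and the use of strand are not given in the sources used here.

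Of 56065 entries, 23133 without a gene symbol (3.80% to 6.40% of a library's counts) stayed out of totals and tests. The rest were summed to 32868 symbols and rounded to whole numbers. The ribosomal RNA gene Rn18s took 8.52% to 12.1% of named counts. Among library pairs of a group, WT 5 and WT 6 differed least (chi-square over degrees of freedom 1.51, other pairs 2.10 to 3.18), still by more than sampling noise, and both were kept.

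The 9932 genes kept by filterByExpr on genotype entered robust quasi-likelihood fits in edgeR 4.0.16 (R 4.3.3) with TMM factors, and a Benjamini-Hochberg adjusted p under 0.05 was the threshold. The fit over both batches had a batch term, and all other contrasts came from a fit of the 4 groups of genotype and batch. The common biological coefficient of variation was 0.129 in the first and 0.115 in the second. Alternatives were DESeq2 1.42.0, no filter, length offsets, Rn18s left out, entries without symbol kept, batches or genotypes fitted alone, no batch term, a block for replicate number, and each library left out. Likeness used log2 CPM with a prior count of 2. Intervals are 95% exact Poisson intervals, and 0 counts were read as allowing 3. The fits were tested on simulated counts.

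Pdpn, the gene lists and the tests were chosen with earlier results of these data known. The genes named are Pdpn, Padi2, the 8 most and 4 least alike, the 5 tested neighbours on each side, pathway genes past the threshold between genotypes with some of the most abundant others, and markers at 0 with each marker list's sum. Cd44, Il6st, Clec1b, Prox1, C1galt1 and the leukocyte genes named were picked for their role or after their values were seen. The results of 3 list genes, which the counts per list include, are not reported here.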

Additional observations from a re-analysis of the deposited data

Results flagged for a closer look

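For 3 of 146 groups of libraries, 1 library stood apart from the others of its genotype, where chance gives about 1 in 20. Eng, a TGF-beta co-receptor gene, was at 139 CPM in PAD2KO 7 and at 92.0 to 104.6 CPM in the other PAD2KO libraries. Phf11d was at 10.6 CPM in PAD2KO 2 and at 6.46 to 7.13 CPM in the others. Slco2a1 was at 107 CPM in WT 3 and at 125 to 136 CPM in the other WT libraries. Pdpn had no such library. The rule took both batches of a genotype together, and the WT levels of Pdpn lay apart by batch, so it could hardly flag a WT library. The rate of 1 in 20 likewise assumes no difference between batches.

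The genotype difference differed between batches by edgeR's test of that difference for 12 of 71 genes examined, where 1.62% of all genes passed. Many of the 71 were named because they passed between genotypes in batch 2, so their count is not read against that share. In log2, batch 2 minus batch 1, it was more positive for Tnfrsf11b by 2.31 (adjusted p = 0.0139), Galnt18 by 1.62 (adjusted p = 0.000107), Jak2 by 1.40 (adjusted p = 0.00535), Mylk by 1.21 (adjusted p = 0.00674) and Myl9 by 1.10 (adjusted p = 0.000483). The same held for Itgb1 by 1.02 (adjusted p = 0.000483), Itga5 by 0.77 (adjusted p = 0.0318), Cd44 by 0.68 (adjusted p = 0.0362) and Fos by 0.66 (adjusted p = 0.0274). It was more negative, as the untested value of Pdpn was, for Dhrs3 (-0.89, adjusted p = 0.00917), Vcam1 (-0.82, adjusted p = 0.0447) and Cd9 (-0.80, adjusted p = 0.0351).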

How the results depend on the processing

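Pdpn kept its direction in all 6 contrasts under every setting run, and its log2 value over both batches moved by more than the spread between replicates in 3 settings: -2.99 with no batch term, and -2.47 and -2.48 without PAD2KO 6 and without PAD2KO 7 (leave-one-out range -2.79 to -2.47). How many genes passed depended far more on the setting, and the cause was not tested. Over both batches 19 passed, against 142 with no filter, 2 with length offsets, 4 with no batch term, 4 with a replicate block, 30 with DESeq2, and 8 to 26 with a library left out. In batch 2, 309 passed, against 529 with no filter, 86 with length offsets and 65 to 371 with a library left out. In batch 1, 13 passed, against 58 with no filter, 2 with length offsets, 22 fitted alone, 8 with the block and 5 to 20 with a library left out. Between batches 2212 passed in WT, against 1364 with length offsets and 1708 to 2303 with a library left out. In PAD2KO 1853 passed, against 870 with length offsets, 1219 with DESeq2 and 1079 to 1947 with a library left out. For the difference between batches 161 passed, against 323 with no filter, 26 with length offsets and 33 to 233 with a library left out. Same-numbered libraries showed little shared deviation (r of 0.002 to 0.049), and the numbers were not taken as pairs. The WT library most alike had the same number for PAD2KO 1 and PAD2KO 6, but not for PAD2KO 3 and PAD2KO 7. Values this small, from noisy counts and few libraries, cannot exclude pairing. With the replicate block Pdpn stood at -2.72 over both batches, -3.44 in batch 2, -1.97 in batch 1 and -1.47 for the difference between batches.
Counts of 113 to 143 limit the precision of Pdpn in each PAD2KO library.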
